A study of Homo sapiens with 6 samples.

Results

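The BCL2 family controls the mitochondrial route to apoptosis. Its pro-survival proteins hold the pore-forming effectors BAX and BAK1 in check, and its BH3-only proteins, named for the single short helix they share with the family, bind the pro-survival proteins or activate the effectors directly. When the effectors permeabilise the outer mitochondrial membrane, cytochrome c leaves the mitochondria and caspases are activated. In neuroblastoma the balance between these groups is of interest because oncogenic MYC proteins are known to sensitise cells to apoptosis, and because BCL2 and MCL1 are drug targets in this tumour.

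The 10 genes described were chosen by name. They comprised the pro-survival genes BCL2, BCL2L1 (BCL-XL), BCL2L2 (BCL-W) and MCL1, the effector BAK1, and the BH3-only genes BCL2L11 (BIM), BID, BIK, PMAIP1 (NOXA) and BMF. All 10 were found among the 60651 gene identifiers of the count tables, and all 10 passed the filter of at least 10 counts in at least 3 libraries, which 29086 genes passed. Gene positions are those of GRCh38.

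The cells came from SK-N-AS, a human neuroblastoma cell line. They were a stable transfectant kept as single clones under G418 and blasticidin, in which a tetracycline repressor blocks an introduced MYCN gene until tetracycline is added. After depletion of ribosomal RNA, total RNA was sequenced in 3 control libraries, labelled ETOH, and 3 MYCN-induced libraries, labelled Tet, after 120 h. Transfection and selection were common to both groups, tetracycline was given to the induced cells, and no cells given tetracycline without the MYCN gene were analysed here, so effects of MYCN and of tetracycline itself cannot be told apart.

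The libraries held 64500589 to 102249336 counted read pairs. MYCN was expressed at 30.3, 35.5 and 32.4 CPM (counts scaled to a common library size with TMM factors) in the controls and at 211, 221 and 199 CPM after induction, so the libraries followed their labels. Of 9 adrenergic neuroblastoma markers, 8 reached at least 1 TPM (counts per exon length, scaled to a common library sum) in every library, the exception being TH. No blood or endothelial marker reached that level, and of the epithelial markers KRT8 and KRT18 did while EPCAM and CDH1 did not. Of 9 mesenchymal markers 6 reached it and CD44 was at 0 counts in every library, while their summed level was 182.6 to 194.8 TPM in the controls and 198.3 to 236.4 TPM in the induced libraries. Mean TPM after induction was higher for VIM (115.7 in controls, 141.5 induced), FOSL1, FOSL2, SNAI2 and PRRX1. It was lower for TWIST1 (47.7 and 38.5), FN1 and NOTCH2, so these markers did not move together. The summed adrenergic markers overlapped, at 525.9 to 668.8 TPM in controls and 496.9 to 650.5 TPM in induced libraries. The part of these marker differences in the results was not tested. MYCN-induced replicate 3 stood apart from the other libraries, at 69.1 on the first principal component. MYCN-induced replicates 1 and 2 lay at 14.4 and 13.1 there and the controls between -40.3 and -25.9. Log2 fold changes and list medians that moved by over 1.5 times without replicate 3 are given with and without it. RNA was pooled over many cells, so that fewer cells with a transcript and less transcript per cell cannot be told apart.

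No member passed the test for a difference between MYCN-induced and control cells. At an adjusted p under 0.05 from edgeR's quasi-likelihood test, 0 of the 10 were higher and 0 were lower, where 1.02% of all tested genes were called higher, 2.38% lower and 3.4% in either direction. At an unadjusted p under 0.05 there were 3 members, MCL1, BID and PMAIP1, all higher, against 8.13% of all genes higher and 10.6% lower (18.7% in either direction). DESeq2 called 1 member higher, PMAIP1, and 0 lower, where it called 3.11% of all genes higher and 4.12% lower. The median log2 fold change over the 10 was 0.11, against -0.00038 over all genes tested, and 8 of the 10 were above 0. With scaling by library size only, 6 were above 0, with a median of 0.080 against -0.034 over all genes. MCL1 then had an unadjusted p of 0.175 from edgeR. Without MYCN-induced replicate 3 the median was 0.047, against 0.0022 over all genes, and 7 of the 10 were above 0. The lean was not particular to the members, as 46 of 66 other cell death genes tested were above 0 in the main fit.

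PMAIP1 had the highest fold change of the members. Its promoter was picked for display because it holds a motif of the ATF and CREB family, so the presence of the motif is no separate result. PMAIP1 (ENSG00000141682.12) lies on the plus strand of chromosome 18 of GRCh38, from 59899996 to 59904305, and has 2186 exon bases. The 250 bases directly upstream of its start, chr18:59899746-59899995, come from RefSeq (GRCh38.p14) and are printed 5′ to 3′ on the plus strand. Capitals mark ACGTCA, the reverse complement of TGACGT, the core of sites bound by the ATF and CREB family.
PMAIP1 upstream region: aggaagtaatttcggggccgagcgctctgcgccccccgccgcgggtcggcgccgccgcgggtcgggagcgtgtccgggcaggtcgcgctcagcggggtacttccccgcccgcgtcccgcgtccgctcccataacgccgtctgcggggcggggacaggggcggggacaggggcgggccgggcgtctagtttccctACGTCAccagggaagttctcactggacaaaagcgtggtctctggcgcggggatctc

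The motif began 56 bases before the start of PMAIP1. Searched on both strands, TGACGT was present in 7.1% of 35116 promoter windows of the same length and in 1 of the 7 members with a promoter entry. These 7 members had 13 windows, so a count of members is not on the scale of a share of windows. CACGTG, the palindromic E-box read by MYC and MAX, was absent from this PMAIP1 window and present in 6.34% of all windows. Among the 7 members with an entry it was found in BID only, in 2 of the overlapping windows for alternative starts. These starts lie 728 and 787 bases inside the BID gene model. The windows for the starts nearer its first base, at 105, 275 and 301 bases, lacked the E-box. The site lies on chromosome 22 and is shown with its flanks on the minus strand, chr22:17774072-17774101, with the E-box in capitals.
BID E-box: ttgtgtcctctcCACGTGgcctggggattc

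These matches describe the letters of the windows, and no binding was measured. The motifs were not found in the windows of BAK1, BCL2, BCL2L1, BCL2L11 and BMF.

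**Figure D1:**
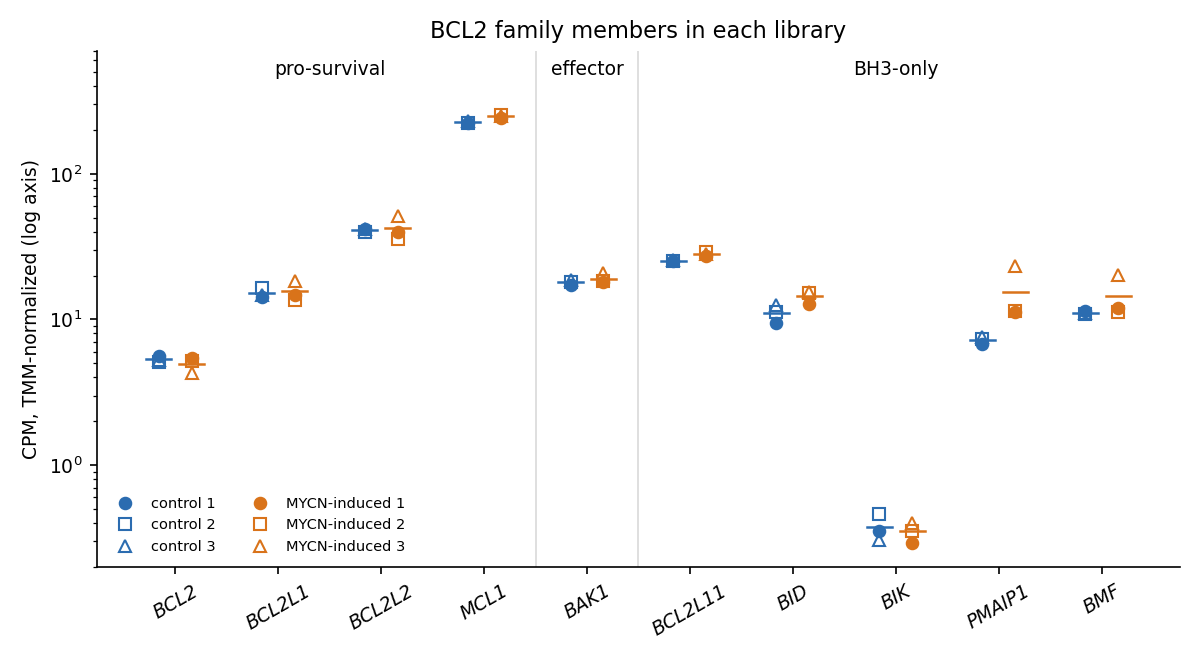
Level of each member in each library, in TMM-normalised CPM on a log axis, with controls in blue, MYCN-induced libraries in orange, a marker shape per replicate number and a bar at the group mean. The induced values of PMAIP1 (11.2 to 23.3 CPM) sit above its controls (6.80 to 7.61 CPM), while MCL1 is the highest member in all 6 libraries and BIK the lowest.

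Among the pro-survival genes, which bind and neutralise the death-promoting members, MCL1 (ENSG00000143384.14, minus strand, chr1:150560895-150579738) encodes a short-lived protein that is lost quickly when synthesis stops. It was expressed at 222, 225 and 229 CPM in the controls and at 244, 253 and 250 CPM after induction. All 3 induced libraries were above all 3 controls, by a narrow margin. This corresponded to a log2 fold change of 0.14 (SE 0.057, edgeR adjusted p = 0.229), and the 95% interval of the fold ran from 1.01 to 1.21. That margin above 1 depended on the scaling. The unadjusted p from edgeR was 0.175 with library size only, 0.161 with upper-quartile normalization and 0.0847 with a replicate block.

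BCL2 (ENSG00000171791.14, minus strand, chr18:63123346-63320128), the founding member and the target of venetoclax, was expressed at 5.62, 5.11 and 5.24 CPM in the controls. Induced libraries had 5.44, 5.18 and 4.28 CPM. The groups overlapped, with the lowest value in MYCN-induced replicate 3. BCL2 differed by -0.10 on the log2 scale (SE 0.12, edgeR adjusted p = 0.726), with an interval of the fold from 0.764 to 1.14. Without MYCN-induced replicate 3 the log2 fold change was 0.0040.

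BCL2L1 (ENSG00000171552.14, minus strand, chr20:31664452-31723989) encodes BCL-XL, or from a shorter splice form a death-promoting protein, and gene counts do not separate these. Control libraries had 14.3, 16.6 and 14.8 CPM and induced libraries 14.8, 13.6 and 18.4 CPM. BCL2L2 (ENSG00000129473.11, plus strand, chr14:23298790-23311751), which encodes BCL-W, had 41.4, 39.9 and 41.7 CPM in controls against 40.03, 35.38 and 51.07 CPM. For both genes the induced values lay on either side of the controls, with replicate 2 lowest and replicate 3 highest. The log2 fold changes were 0.034 for BCL2L1 and 0.040 for BCL2L2 (SE 0.13 each, edgeR adjusted p = 0.922 and 0.908), and both were slightly below 0 with scaling by library size only (-0.0055 and -0.0022). Without MYCN-induced replicate 3 they were -0.093 and -0.11. The 95% intervals of the fold were 0.834 to 1.26 and 0.837 to 1.26.

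The counts of both genes carry a limit from the way pairs were assigned. Of the exon bases of BCL2L1, 41.3% are shared with the antisense gene ABALON, and 23.3% of those of BCL2L2 are shared with 2 genes, the read-through gene BCL2L2-PABPN1 on the same strand and PPP1R3E on the opposite strand. Pairs counted for several genes in such bases were divided equally between them. Whether this covered the opposite-strand genes ABALON and PPP1R3E is uncertain, as the records of strand use in counting differ. Adding the overlapping genes' counts to the member gave log2 fold changes of 0.033 for BCL2L1 and 0.022 for BCL2L2. BCL2L2-PABPN1 had a mean of 8236.6 counts in controls, where BCL2L2 had 3541 to 4338.83. The sum for BCL2L2 is therefore mostly counts of other genes and is no check of BCL2L2 itself. Smaller overlaps were present in MCL1 (5.3%), BCL2L11 (13.8%), BMF (8.5%) and BAK1 (4.1%), and BCL2, BID, BIK and PMAIP1 shared no exon base with another gene.

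BAK1 (ENSG00000030110.13, minus strand, chr6:33572547-33580293), an effector that sits in the outer mitochondrial membrane and forms the pore once activated, was expressed at 17.1, 18.1 and 18.7 CPM in the controls and at 18.04, 18.34 and 20.76 CPM after induction. The groups overlapped. BAK1 differed by 0.084 on the log2 scale (SE 0.090, edgeR adjusted p = 0.679), with an interval of the fold from 0.917 to 1.23. The difference was 0.026 without MYCN-induced replicate 3 and 0.045 without control replicate 1.

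The BH3-only genes start the pathway in response to stress, and PMAIP1 encodes NOXA, which binds MCL1 preferentially and promotes its degradation. PMAIP1 had 6.80, 7.34 and 7.61 CPM in the control libraries. After induction it had 11.2, 11.4 and 23.3 CPM. Every induced library was above every control, and replicate 3 was far above the other induced libraries. PMAIP1 had a log2 fold change of 1.08 (SE 0.27, 95% interval 0.45 to 1.71), a fold of 2.11, and the adjusted p of 0.0816 from edgeR missed the threshold. Without MYCN-induced replicate 3 the log2 fold change was 0.65 and the adjusted p 0.0104 from edgeR, with 3.68% of all genes then called higher and 4.44% lower. Over all alternatives the adjusted p from edgeR or DESeq2 ran from 0.00224 to 0.279, and the log2 fold change from 0.65 to 1.27.

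BID (ENSG00000015475.19, minus strand, chr22:17734138-17774770) is cleaved by caspase-8 and links the death receptors to the mitochondria. Its levels were 9.40, 11.2 and 12.6 CPM in controls and 12.7, 15.2 and 15.3 CPM in induced libraries. The groups did not overlap, although the highest control and the lowest induced library nearly met. BID was higher by 0.38 on the log2 scale, which missed the threshold (SE 0.13, edgeR adjusted p = 0.176), with an interval of the fold from 1.05 to 1.61.

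BCL2L11 (ENSG00000153094.24, plus strand, chr2:111119378-111168445) encodes BIM, which binds all pro-survival members. It was at 25.2, 25.1 and 25.8 CPM in controls and at 27.3, 29.2 and 28.1 CPM in induced libraries, again without overlap. Its difference of 0.16 on the log2 scale missed the threshold too (SE 0.071, edgeR adjusted p = 0.290), with an interval of the fold from 0.994 to 1.25.

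BMF (ENSG00000104081.14, minus strand, chr15:40087890-40108892), which is tethered to the actin cytoskeleton in healthy cells, had 11.3, 10.9 and 11.1 CPM in controls. The induced libraries had 11.99, 11.20 and 20.03 CPM. Only MYCN-induced replicate 3 lay clearly above the controls. The log2 fold change of 0.37 (SE 0.21, edgeR adjusted p = 0.396) was 0.068 without that library.

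BIK (ENSG00000100290.3, plus strand, chr22:43110750-43129712), a BH3-only protein of the endoplasmic reticulum, was close to the lower end of what was tested. It had 37, 41 and 31 counted pairs in the controls and 19, 33 and 34 in the induced libraries. The values overlapped on the CPM scale, at 0.306 to 0.463 against 0.293 to 0.401. For BIK the log2 fold change was -0.081 (SE 0.24, edgeR adjusted p = 0.900), and its interval of the fold, 0.642 to 1.39, was wide at these low counts. The log2 value was -0.18 without MYCN-induced replicate 3.

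**Figure D2:**
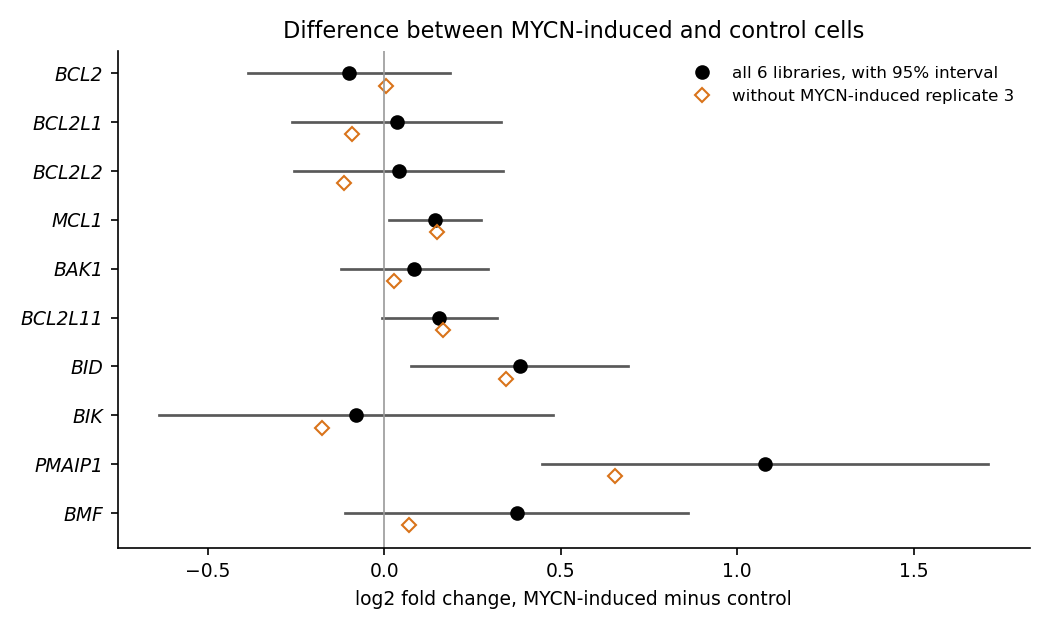
Log2 fold change of each member (MYCN-induced minus control) with its 95% interval from edgeR (black) and the value without MYCN-induced replicate 3 (open orange diamonds). PMAIP1 moves from 1.08 to 0.65 and BMF from 0.37 to 0.068, while MCL1, BCL2L11 and BID move by less than 0.05.

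In CPM, 4 members, MCL1, BCL2L11, BID and PMAIP1, had all induced values above all control values, where 11.5% of all tested genes did so. No member had all induced values below, where 14.7% of all genes did (26.3% in either direction). In TPM over all genes, the groups of MCL1 and BCL2L11 overlapped, with MYCN-induced replicate 3 at 56.9 TPM for MCL1 against 57.6 to 61.7 in controls, and those of BID and PMAIP1 did not. In TPM over protein-coding genes only, none of these 4 overlapped.

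Levels of different genes were compared per exon length, in TPM. In the controls MCL1 stood at 59.4 ± 2.10 TPM (SD, n = 3), followed by BCL2L2 at 13.9 ± 0.781, BAK1 at 13.3 ± 0.0668, BCL2L11 at 6.25 ± 0.258, BCL2L1 at 5.95 ± 0.455 and PMAIP1 at 5.44 ± 0.0488. BID at 4.09 ± 0.393, BMF at 3.35 ± 0.223, BCL2 at 0.694 ± 0.0676 and BIK at 0.646 ± 0.145 TPM came last. Neighbours in this order did not overlap over the 3 libraries, except for BCL2L11 with BCL2L1 and BCL2 with BIK. BCL2 was thus among the least abundant members, although its 12612 exon bases, the most of any member, lower its TPM if the cells use shorter transcripts.

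After induction PMAIP1 moved from place 6 to place 4, at 11.1 ± 3.49 TPM (SD, n = 3), and in MYCN-induced replicate 3 it was second only to MCL1. MCL1 remained first, at 65.8 ± 8.80 TPM. The induced ranges of BCL2L2, BAK1 and PMAIP1 overlapped from neighbour to neighbour, as did those of BCL2L11, BCL2L1, BID and BMF.

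Within the pro-survival group, MCL1 made up 74.2%, 74.2% and 74.6% of the summed TPM in the controls and 76.2%, 78.8% and 72.4% in the induced libraries. BCL2 contributed 0.831% to 0.928% in controls and 0.613% to 0.840% after induction. The composition of this group differed little between conditions. Among the BH3-only members, PMAIP1 held 27.1%, 27.7% and 27.7% of the summed TPM in controls and 35.1%, 33.8% and 47.5% in induced libraries. BCL2L11 held 30.8% to 33.0% in controls and 28.1%, 28.3% and 18.8% in the induced libraries.

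The summed TPM of the 5 BH3-only members relative to that of the 4 pro-survival members was 0.239, 0.249 and 0.255 in the controls. In the induced libraries it was 0.285, 0.300 and 0.405. BH3-only genes outside the members, such as BAD, BBC3 and HRK, were not in the sum. Leaving PMAIP1 out of the BH3-only sum gave 0.174 to 0.184 in controls and 0.185 to 0.213 after induction. The gap between the conditions was smaller without PMAIP1. NOXA and MCL1 form a pair, and PMAIP1 TPM over MCL1 TPM was 0.0872 to 0.0946 in the controls and 0.131, 0.129 and 0.265 in the induced libraries. These ratios of transcripts are descriptions, and protein was not measured here.

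**Figure D3:**
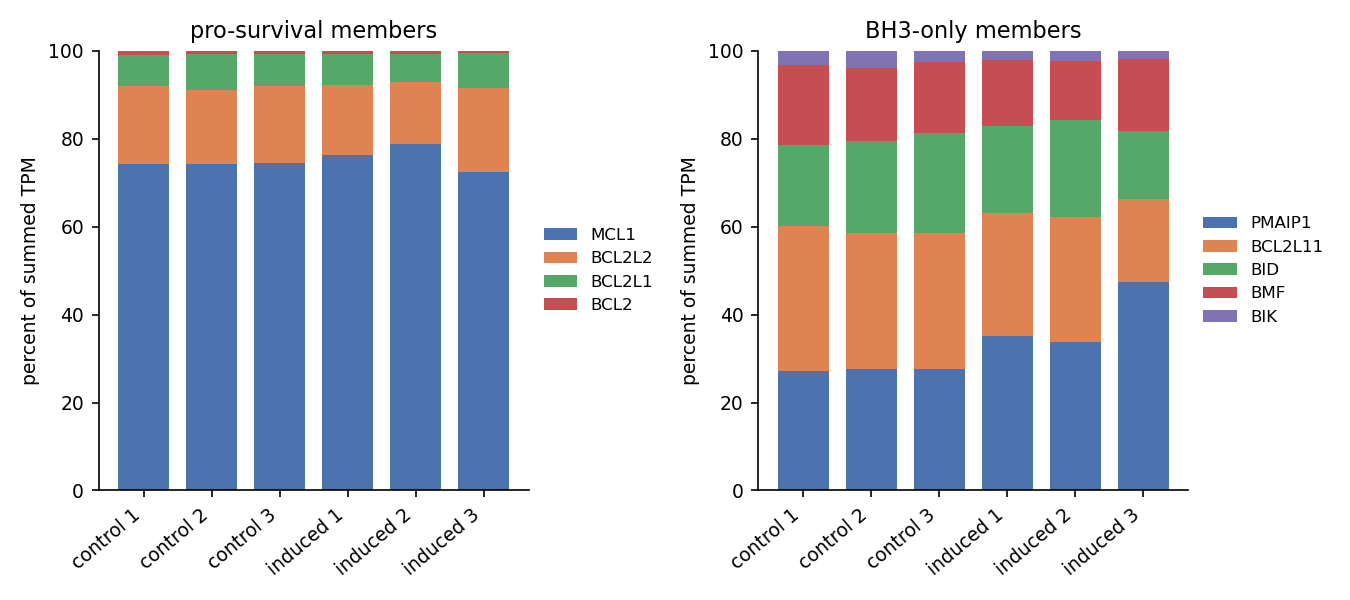
Share of each gene in the summed TPM of its group, in percent, for each library (pro-survival genes left, BH3-only genes right). MCL1 takes between 72.4% and 78.8% of the pro-survival sum in every library, and PMAIP1 takes more of the BH3-only sum in each induced library than in any control.

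The other genes of the cell death pathway were read from 6 lists of 73 genes, 66 of which were tested. Of these, 2 were higher (CASP8 and ATF4) and 1 was lower (FAS) at an adjusted p under 0.05 from edgeR, against 1.02% and 2.38% of all genes. Over the 66, the median was 0.075.

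CASP8 encodes the initiator caspase that acts below the death receptors and cleaves BID. It was at 23.7, 24.1 and 22.3 CPM in controls and at 29.5, 33.4 and 33.4 CPM in induced libraries, without overlap. CASP8 was higher by 0.46 on the log2 scale (SE 0.083, edgeR adjusted p = 0.0302). It kept its size but not the threshold without control replicates 1 (0.46, adjusted p = 0.101), 2 (0.48, 0.159) and 3 (0.42, 0.143) and without MYCN-induced replicates 1 (0.52, 0.0534) and 2 (0.43, 0.0756), all from edgeR. The 13 genes on the apoptosome and caspase list had a median of 0.078, and of 0.12 without MYCN-induced replicate 3. Of these, edgeR called CASP8 alone. DESeq2 called 2 higher, where it called 3.11% of all genes higher. Without MYCN-induced replicate 3 edgeR called 3 higher, against 3.68% of all genes.

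FAS, a death receptor that recruits caspase-8, went the other way. Control libraries had 2.71, 2.39 and 2.22 CPM and induced libraries 1.23, 0.966 and 1.44 CPM, a fold of 0.496 without overlap. FAS had a log2 fold change of -1.01 (SE 0.18, edgeR adjusted p = 0.0270). It missed the threshold without control replicates 1 (-0.93, adjusted p = 0.104), 2 (-1.03, 0.127) and 3 (-1.08, 0.0895) and without MYCN-induced replicates 1 (-1.02, 0.0920) and 2 (-0.87, 0.0588), all from edgeR. Of the 9 genes on the death receptor list 7 were tested, with a median of -0.050, and of -0.13 without MYCN-induced replicate 3. At an unadjusted p under 0.05 from edgeR 1 was higher and 1 lower, against 8.13% and 10.6% of all genes. DESeq2 called 1 higher and 1 lower, against 3.11% and 4.12% of all genes. EdgeR without MYCN-induced replicate 3 also called 1 higher and 1 lower, against 3.68% and 4.44%.

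ATF4, the transcription factor of the integrated stress response, is known to activate PMAIP1 in stressed cells. It had 189, 189 and 204 CPM in the controls and 319, 300 and 547 CPM after induction. As with PMAIP1, the induced libraries were all higher and replicate 3 was the highest by far. ATF4 had a log2 fold change of 1.005 (SE 0.21, edgeR adjusted p = 0.0475) and 0.68 without MYCN-induced replicate 3 (edgeR adjusted p = 0.00298). The call was lost without control replicates 1 (0.98, adjusted p = 0.165), 2 (0.98, 0.212) and 3 (1.04, 0.154) and without MYCN-induced replicate 1 (1.14, 0.0868), from the same test. DDIT3 (CHOP), another stress factor, had 8.43 to 9.35 CPM in controls and 12.4, 11.2 and 27.7 CPM in induced libraries (log2 fold change 0.96, adjusted p = 0.162 from edgeR). DDIT3 was called by DESeq2 (0.98, adjusted p = 0.0294) and, at a smaller change, by edgeR without MYCN-induced replicate 3 (0.43, adjusted p = 0.0335). DDIT3 and HRK were named after their values were seen. The part of ATF4 or DDIT3 in the PMAIP1 difference was not tested.

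**Figure D4:**
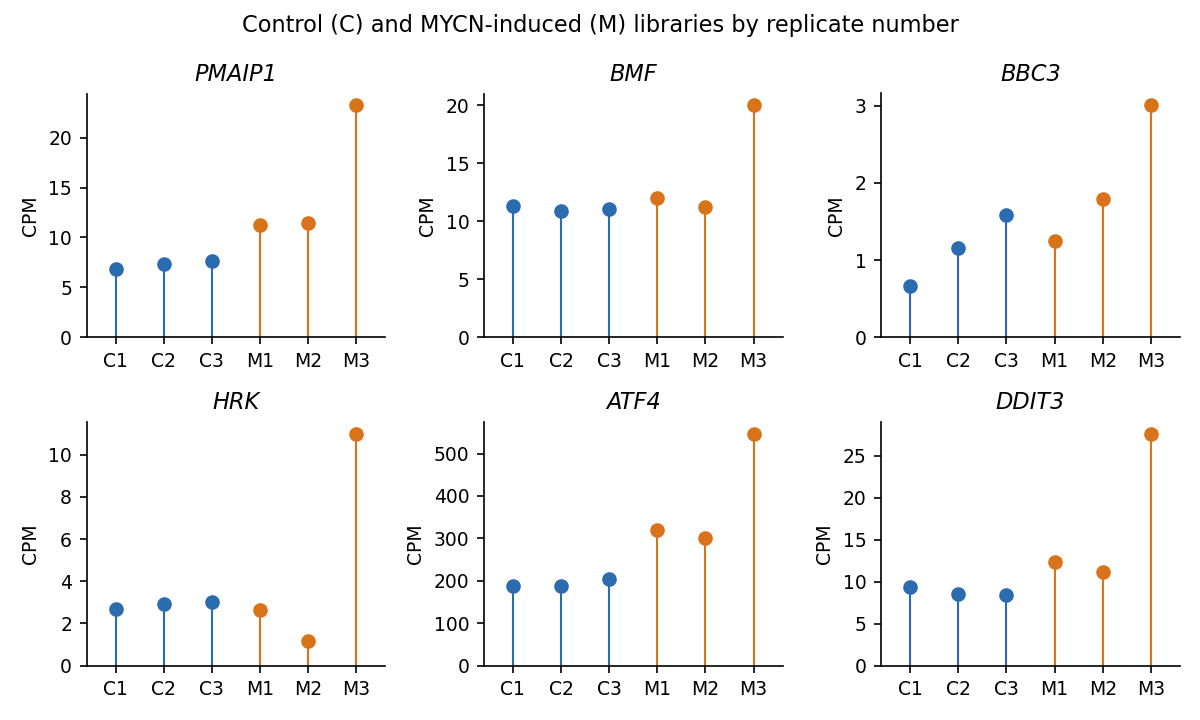
CPM in each library for PMAIP1, BMF, BBC3, HRK, ATF4 and DDIT3, with controls (C1 to C3) in blue and MYCN-induced libraries (M1 to M3) in orange and each axis starting at 0. MYCN-induced replicate 3 is the highest library for all 6 genes, and for BMF and HRK the other induced libraries lie near or below the controls. The genes were picked for display, DDIT3 and HRK after their values were seen, so the number that share this peak is no result.

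The rest of the BCL2 family contained 0 genes called by edgeR or DESeq2. At an unadjusted p under 0.05 from edgeR 1 was higher, against 8.13% of all genes. Of 15 further members 12 were tested, with a median of 0.099 (0.054 without MYCN-induced replicate 3). BCL2A1, BCL2L10 and BCL2L14, with at most 2 counts in any library, were not. The smallest p-values were those of BNIP2, a BCL2-interacting protein (98.9 ± 3.95 and 111 ± 5.19 CPM, SD, n = 3 each), and BBC3, which encodes PUMA. BNIP2 differed by 0.17 on the log2 scale (edgeR adjusted p = 0.230). BBC3 had 0.668, 1.15 and 1.59 CPM in controls and 1.25, 1.79 and 3.01 CPM in induced libraries, a log2 fold change of 0.84 (edgeR adjusted p = 0.292) with overlapping groups. Without MYCN-induced replicate 3 that change was 0.44. HRK, a neuronal BH3-only gene, had 2.69, 2.93 and 3.01 CPM in controls against 2.62, 1.18 and 11.0 CPM in induced libraries, so that its log2 fold change of 0.78 became -0.62 without MYCN-induced replicate 3.

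Among the inhibitors of apoptosis and their antagonists 0 genes were called by edgeR or DESeq2, with 6 of 8 tested. At an unadjusted p under 0.05 from edgeR 1 was higher, against 8.13% of all genes. The median was 0.060, and 0.037 without MYCN-induced replicate 3. XIAP, which binds active caspases, had a log2 fold change of 0.18 (edgeR adjusted p = 0.208), and BIRC6, a very large ubiquitin ligase of this group, had 0.084 (adjusted p = 0.593) and 0.0505 without MYCN-induced replicate 3. Of 13 partners and turnover factors of the members, 0 were called by edgeR and 3 by DESeq2, where DESeq2 called 3.11% of all genes higher. At an unadjusted p under 0.05 from edgeR there were 5, all higher, against 8.13% of all genes, and the median was 0.0895. The smallest p-values there were those of BAG1, a chaperone cofactor that binds BCL2, at 23.55 ± 1.204 and 29.49 ± 0.8186 CPM (log2 fold change 0.32, adjusted p = 0.0656 from edgeR), and of TPT1, which binds MCL1, at 796 ± 60.0 and 1014 ± 101.9 CPM (0.35, adjusted p = 0.0962; SD, n = 3 each). BAG1 passed the threshold without MYCN-induced replicate 3 (edgeR adjusted p = 0.0482). Among the 15 transcriptional regulators of members the median was 0.036, and 0.069 without MYCN-induced replicate 3, and edgeR called ATF4 alone. DESeq2 called 2 higher and 1 lower, against 3.11% and 4.12% of all genes. EdgeR without MYCN-induced replicate 3 called 2 higher and 2 lower, against 3.68% and 4.44%.

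**Figure D5:**
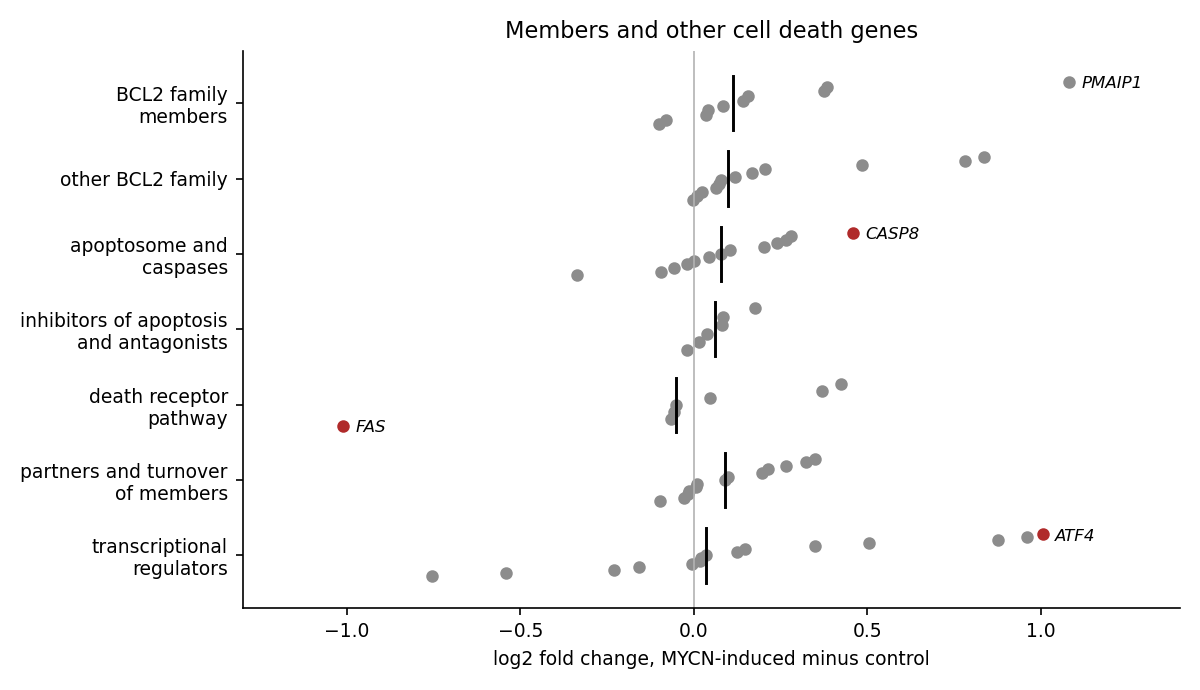
Log2 fold change (MYCN-induced minus control) of the tested genes of each list, 1 point per gene, with a black line at the list median and genes at an adjusted p under 0.05 from edgeR in red. CASP8, FAS and ATF4 are the 3 genes in red, PMAIP1 lies furthest to the right among the members, and the list medians run from -0.050 to 0.11.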

How the data were processed

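The authors deposited, for each of 6 libraries, estimated counts: read pairs on the exons of each gene, divided equally where a pair overlapped several genes. Per the file headers they were made with featureCounts 1.6.4 from unique alignments without a strand option, while the submitters' processing notes name STAR 2.7.1a, featureCounts 1.5.1 and GRCh38, and the methods name a strand option. Antisense overlaps are therefore uncertain. The 92 spike-in sequences had 0 counts. Gene names came from GENCODE 44 (99.65% of identifiers matched).

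Counts were rounded, filtered at 10 counts in 3 libraries and tested with edgeR 4.0.16 (R 4.3.3; TMM, quasi-likelihood test, Benjamini-Hochberg over 29086 genes, threshold 0.05). Standard errors are the log2 fold change over the square root of F. TPM used the deposited exon lengths. DESeq2 1.42.0, other scalings, no count filter, a replicate block, counts with overlapping genes added and leaving out each library were alternatives. On simulated counts of 28606 genes for this comparison, edgeR called 61.4% of 197 genes changed 2-fold, and 9 unchanged genes. DESeq2 called 69% of the changed genes but 39 unchanged genes, so its calls here are less strict. With the replicate block edgeR called 57.9% and 18 unchanged genes.

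Libraries of a group differed by more than sampling noise (chi-square per gene 11.2 to 135.9), so each counted as 1 sample. The study describes them as biologically independent. At 64500589 to 102249336 pairs, 3 counts equal 0.0293 to 0.0465 CPM, and the spread between cultures (biological coefficient of variation 0.153) set the precision. The members and lists were chosen with earlier results of these data known. Named genes are all members, the genes past the threshold in each list (up to 5) or, where none passed, the 2 with the smallest p. Isoforms and circular RNAs were not analysed here.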

Additional observations from a re-analysis of the deposited data

How the results depend on the processing

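MYCN kept its direction and call under every alternative run. PMAIP1 was above 0 in every alternative and was the 1 member called higher with DESeq2 (adjusted p = 0.00224), with no count filter (0.0276 from edgeR) and without MYCN-induced replicate 3. No member was called lower in any of them. The sign of 4 members with log2 fold changes near 0 reversed: BCL2L1 (-0.0055) and BCL2L2 (-0.0022) with library size only, BCL2L1 without control replicate 1 (-0.013), BIK without control replicate 2 (0.090) and MYCN-induced replicate 1 (0.027), and BCL2 (0.0040), BCL2L1 (-0.093) and BCL2L2 (-0.11) without MYCN-induced replicate 3. Leaving out 1 library at a time gave -0.16 to 0.0040 for BCL2, -0.093 to 0.12 for BCL2L1, -0.11 to 0.15 for BCL2L2 and -0.21 to 0.090 for BIK.

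All genes called numbered 298 higher and 692 lower, against 904 and 1199 with DESeq2 and 470 higher with no count filter, and from 18 to 1060 higher and from 72 to 1279 lower when 1 library was left out. DESeq2 moved the share of calls that were higher from 30.1% to 43.0%. Members called higher ran from 0 to 1 when 1 library was left out. Other cell death genes called were 8 higher and 2 lower with DESeq2, and 2 lower with library size only, upper-quartile normalization, no count filter and the replicate block. They ran from 0 to 9 higher and from 0 to 3 lower when 1 library was left out.

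Correlations of same-numbered deviations were 0.22, -0.019 and 0.074, with a mean of 0.090 against -0.047 for the other correlations. These few values do not settle whether the replicate numbers pair the libraries. The replicate block gave 265 higher and 575 lower genes and called 0 members. PMAIP1 stood at 0.99 on the log2 scale (edgeR adjusted p = 0.0504), CASP8 missed the threshold (0.0536) and BBC3 passed it (0.0400). TPM over protein-coding genes only raised every level. Shares within a group do not depend on this choice by construction.

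BIK, at 19 to 41 counts, is the member whose precision the depth limits.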
